A study of Homo sapiens with 4 samples.

Results

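The RNA of MCF10A cells that received Ovol2 was set directly against the RNA of MCF10A cells that received Zeb1, to compare an epithelial with a mesenchymal driver in one line. MCF10A, a human breast epithelial line that is established and not tumorigenic, grows as a basal-like epithelium. Of the 4 libraries of the series, 2 make up the comparison, and the libraries of cells with an empty vector and with Snail served to place its genes. Every culture was infected with a pHIV-ZsGreen lentivirus, carrying nothing further, Zeb1, Snail or Ovol2, and fluorescent cells were sorted 6 days later. Every culture grew with horse serum at 5%, epidermal growth factor at 10 ng/mL, cholera toxin at 100 ng/mL and insulin at 0.023 IU/mL, and each library was made from 1 ug of total RNA with a TruSeq kit. The genes compared were those at 1 FPKM or more (fragments scaled to transcript length and library size) in either of the 2 libraries, which kept 11991 of 25317 gene symbols.

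There was 1 library per group, so no difference below has a replicate check, and no p-value, error or interval between conditions could be computed. The measure of a gene is the log2 ratio of FPKM + 1 in the Ovol2 library to FPKM + 1 in the Zeb1 library, so a positive value means more RNA with Ovol2. In place of a test, a gene counts as higher or lower when it differs by 2-fold or more on that scale. The added 1 FPKM understates the difference of low genes, and where a library lies under 1 FPKM it largely sets the ratio. The sources used here do not say which species the delivered coding sequences came from, and all cells are of 1 line.

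ZEB1 is a zinc finger repressor that drives the epithelial-to-mesenchymal transition, in which cells give up junctions and polarity and make a fibrous matrix. It binds E-boxes, short DNA words found in the promoters of many epithelial genes. OVOL2 is a zinc finger repressor of epithelia that holds back ZEB1 and favours the epithelial state. In stratified epithelia such as epidermis, cells that leave the basal layer switch keratins and build a cornified envelope with S100 proteins, small proline-rich proteins and their proteases.

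Each delivered factor was high in its own library, and each was lowest in the library of the opposing factor. ZEB1 stood at 0.260 FPKM with the empty vector, 17.3 with Zeb1, 0.536 with Snail and 0.0380 with Ovol2. OVOL2 stood at 6.32 FPKM with the empty vector, 0.563 with Zeb1, 5.26 with Snail and 78.3 with Ovol2. The log2 ratios of Ovol2 over Zeb1 were -4.14 for ZEB1 and 5.66 for OVOL2, but these values may not count all delivered transcripts if a coding sequence was not human.

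The markers set for either end of the span took opposite extremes in the 2 libraries, with the empty vector and Snail libraries between them for all 5. FN1, the matrix protein fibronectin, was at 92.7, 3982, 576 and 6.60 FPKM with the empty vector, Zeb1, Snail and Ovol2, 603-fold lower with Ovol2 than with Zeb1 and the gene with the lowest ratio of all (-9.03). VIM, the intermediate filament vimentin, stood, in that order, at 12.6, 181, 95.6 and 1.05 FPKM, 172-fold lower with Ovol2 (-6.47). At the epithelial end, FXYD3, a regulator of the sodium pump, was at 119, 11.9, 37.1 and 719 FPKM (5.81). AQP3, a water and glycerol channel of keratinocytes, stood at 39.3, 6.58, 7.33 and 661 FPKM (6.45). S100A9, a calcium-binding alarmin, was at 16.5, 2.12, 4.52 and 4144 FPKM (10.37). For all 5 the Snail library lay between the empty vector and Zeb1.

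**Figure D1:**
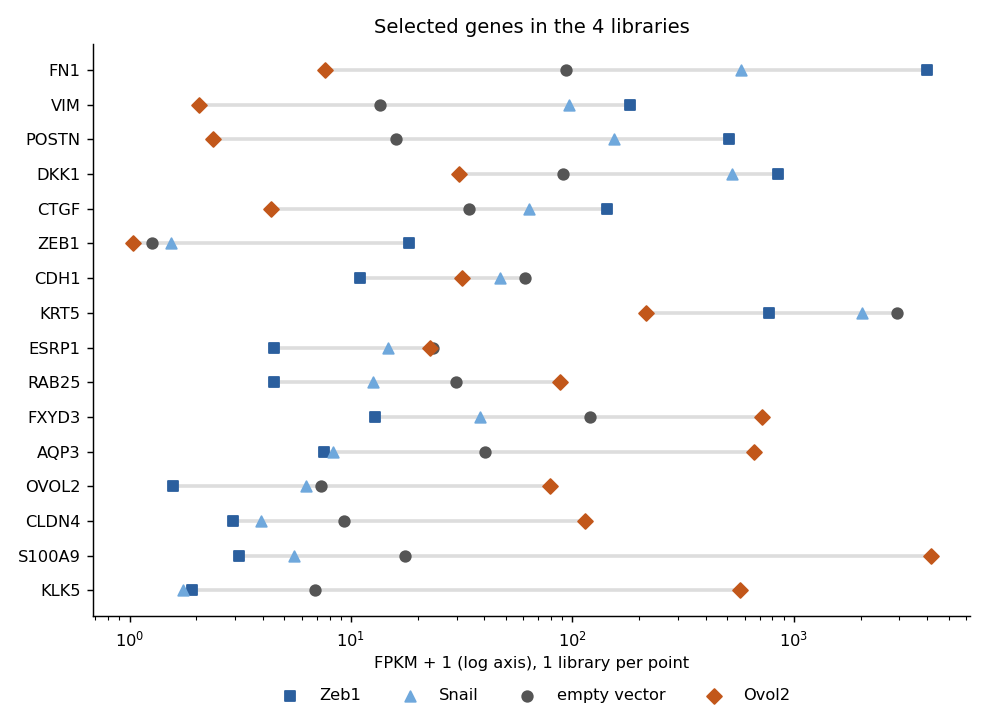
FPKM + 1 on a log axis for 16 genes in the 4 libraries, 1 library per point. FN1 runs from 6.60 FPKM with Ovol2 to 3982 with Zeb1 and S100A9 from 2.12 with Zeb1 to 4144 with Ovol2, while CDH1 and KRT5 are highest with the empty vector.

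The cadherins of the 2 states were less far apart than these markers. CDH1, the epithelial cadherin, was at 60.4 FPKM with the empty vector, 9.99 with Zeb1, 46.05 with Snail and 30.8 with Ovol2, 3.08-fold higher with Ovol2 than with Zeb1 (log2 1.53) but still below the empty vector. CDH2, the neural cadherin, stood, likewise, at 1.23, 11.3, 3.11 and 0.110 FPKM (-3.47). EPCAM, an epithelial adhesion molecule, was at 6.61, 1.08, 0.683 and 5.51 FPKM (1.65, or 0.79 with a pseudocount of 5 FPKM). The line's own basal and luminal keratins were present in all 4 libraries, with KRT5 at 2929, 771, 2022 and 215 FPKM, KRT14 at 195, 69.96, 204 and 58.5 FPKM and KRT18 at 96.1, 39.8, 91.1 and 87.5 FPKM (1.12, length-corrected 0.87). KRT5 was lowest with Ovol2, -1.84 against Zeb1, and the basal epithelial factor TP63 was at 23.9, 4.06, 15.7 and 8.23 FPKM (0.87, length-corrected 1.71).

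Across all kept genes, 1731 were higher with Ovol2 (14.4%) and 3448 were lower (28.8%), 43.2% either way, and the median log2 ratio was -0.43. Of the kept genes, 681 reached 1 FPKM with Ovol2 only and 1873 with Zeb1 only, and such genes could pass only through their higher library. Among the 9437 genes at 1 FPKM or more in both libraries, 1273 were higher (13.5%) and 2334 lower (24.7%). At 4-fold or more, 523 were higher (4.36%) and 812 lower (6.77%), 11.1% either way. At 8-fold or more, 196 genes were higher (1.63%) and 211 lower (1.76%), 3.39% either way. The share of higher genes among those called was 33.4%, and it depends on scale. It was 44.0% with upper quartile scaling (2157 higher, 2748 lower, median -0.24). When the libraries were rescaled without RMRP and RPPH1 it was 16.5% (1031 and 5218, median -0.84). After correction for transcript length it was 52.8% (1842 and 1645). That correction sets the median to 0, so a near-even split is partly built in.

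**Figure D2:**
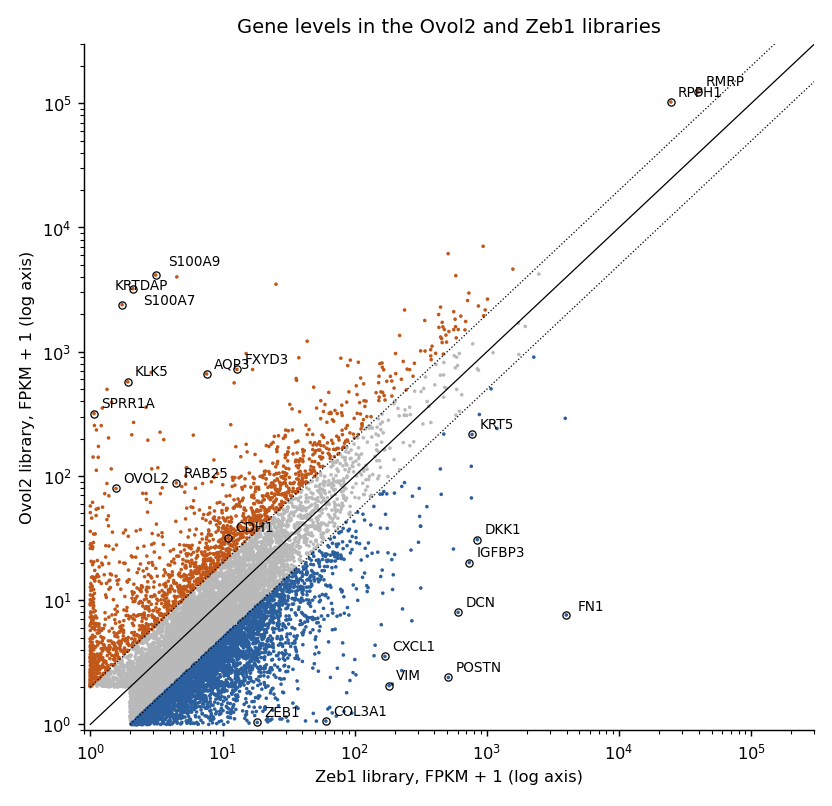
FPKM + 1 of the 11991 kept genes in the Zeb1 library (x, log axis) and the Ovol2 library (y, log axis), with the line of equality, dotted 2-fold lines, 1731 genes higher with Ovol2 in orange and 3448 lower in blue. The column of orange points near the left edge holds squamous genes listed under 1 FPKM with Zeb1, while FN1 and POSTN lie lowest against their Zeb1 level.

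The non-coding RNAs RMRP and RPPH1, components of the RNases MRP and P, took 40.6% of all FPKM in the Ovol2 library and 18.7% to 24.6% in the other libraries. Depth, estimated from the spacing of low values, was about 24100000 fragments for Ovol2 and 29100000 to 34300000 for the others. Of 12 immune markers only CD14 and CD68 reached 1 FPKM in either library, of 8 endothelial markers only VWF, at 1.29 FPKM with Ovol2, and of 10 neural and muscle markers only TUBB3 and MAP2. The last 2 were not near 0, with TUBB3 at 23.5, 16.7, 16.2 and 45.1 FPKM with the empty vector, Zeb1, Snail and Ovol2 and MAP2 at 1.66, 19.7, 10.5 and 1.64 FPKM, and their list summed to 25.5, 37.1, 27.0015 and 46.9 FPKM in that order. The immune list summed to 22.7 FPKM with Zeb1, 9.02 with Ovol2, 5.19 with Snail and 4.61 with the empty vector. Of its 12 markers, 6, 3, 2 and 1 were listed at 0 with the empty vector, Zeb1, Snail and Ovol2, and CD3E in all 4. CD14, a receptor for bacterial lipopolysaccharide, made most of the immune sum with Zeb1, at 1.46, 16.97, 0.828 and 2.49 FPKM in that order.

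Transcript length moved with the ratio. Over 11787 genes with a length from GENCODE, the Spearman rho of the log2 ratio with the length of the longest transcript was -0.50, given as a description across genes that share the same 2 libraries. With genes in 10 equal groups by length, the median ratio went from 0.89 in the shortest group, of median length 777 bases, to -1.27 in the longest, of median length 9306 bases. The median length was 1922 bases among higher genes and 5083 among lower genes. Against the empty vector, the medians from shortest to longest went from 0.32 to -1.04 for Ovol2 and from -0.46 to 0.24 for Zeb1. The part of length in any single gene's ratio was not tested, and length-corrected ratios, in which the median of genes of like length is subtracted, are given below with the counts of each list they change. The subtraction also moves the median of all genes from -0.43 to 0, so the shift of a list includes this recentring. Single genes carry a corrected ratio where it falls on the other side of the 2-fold line or of 0, and a few further long genes do as well.

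The place of the empty vector library describes which of the 2 libraries makes up a span on the scale used. Its level was expressed on the log2 scale as a position, from 0% at the Zeb1 level to 100% at the Ovol2 level, and a gene was called near an end within 25% of it. For the 1731 genes higher with Ovol2, the empty vector lay between the ends for 886, near or beyond the Zeb1 level for 358 and 115, and near or beyond the Ovol2 level for 208 and 164 (median position 46.6%). For the 3448 lower genes, it lay between for 1524, near or beyond the Zeb1 level for 1118 and 575, and near or beyond the Ovol2 level for 173 and 58 (median 25.6%). The empty vector thus lay near or beyond the Zeb1 level for a larger share of the lower genes than of the higher genes. Lower genes are also longer. In the length group of median 5265.5 bases, the median ratio to the empty vector was -0.80 for Ovol2 and 0.03 for Zeb1. The places also depend on scale, as given below with the processing. The part of length and scale in them was not tested. The Snail library lay closer to Zeb1 than the empty vector did, at median positions of 31.5% for the higher and 6.80% for the lower genes.

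**Figure D3:**
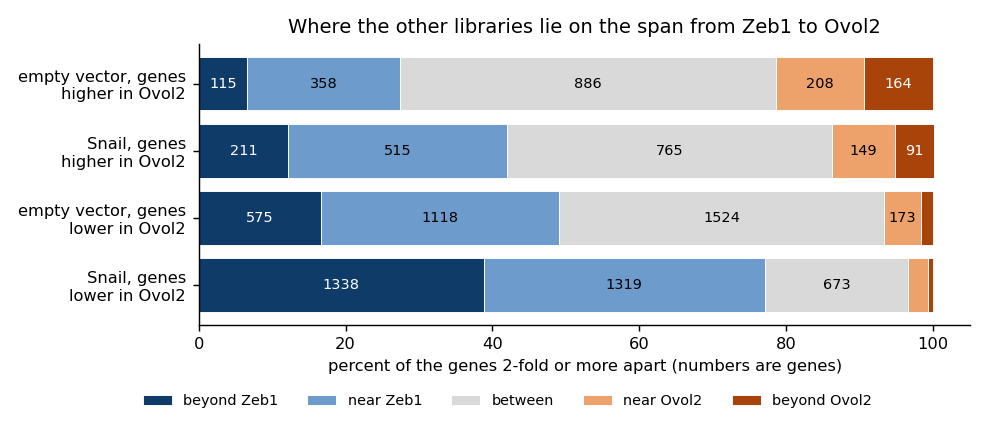
Share of the genes higher or lower by 2-fold or more with Ovol2 than with Zeb1 (x, percent, with gene numbers in the bars) by where the empty vector or Snail library lies on the span between them. For lower genes, Snail lay near or beyond the Zeb1 level for 1319 and 1338 of 3448 genes, and the empty vector for 1118 and 575.

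Among genes with the empty vector near the Ovol2 level, where the Zeb1 library made most of the span, S100A14 and LAD1 had the largest ratios. S100A14, an S100 protein of epithelia, was at 409, 36.8, 229 and 894 FPKM with the empty vector, Zeb1, Snail and Ovol2 (log2 4.57), and LAD1, an anchoring filament protein of basement membranes, at 43.1, 5.25, 30.2 and 78.7 FPKM (3.67). For PROM2, MPZL2 and TRIM29 the empty vector lay beyond the Ovol2 level. The keratinocyte protein TRIM29 was at 104, 20.4, 68.3 and 93.6 FPKM (2.15). At the other end, LAMB1, a laminin chain, was at 66.02, 62.4, 114 and 3.62 FPKM (-3.78) and PTRF, which coats caveolae, at 111, 104, 149 and 8.97 FPKM (-3.40), so that these genes were low only in the Ovol2 library. IGFBP3, which binds insulin-like growth factors, was highest with Zeb1 and alike with Ovol2 and the empty vector, at 18.2, 735, 92.9 and 19.1 FPKM (-5.20), and FBXO32, a ubiquitin ligase subunit, at 14.8, 195, 22.9 and 15.02 FPKM (-3.61).

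The transcription factors of the 2 states divided along the same span. Of 9 kept EMT factors, 8 were lower with Ovol2 and 1, SOX9, higher (1.20), with a median log2 ratio of -1.53 against -0.43 over all kept genes. After length correction 6 were lower and 1 higher, with a median of -1.13. TWIST1, a helix-loop-helix factor of mesoderm and neural crest, was at 5.45, 13.996, 7.72 and 0.609 FPKM with the empty vector, Zeb1, Snail and Ovol2 (-3.22). SOX4 was at 29.2, 57.5, 30.5 and 6.005 FPKM (-3.06) and ZEB2, the paralog of ZEB1, at 0.523, 4.39, 1.90 and 0.0228 FPKM (-2.40, length-corrected -1.01). SNAI2, which encodes Slug, was at 40.9, 59.1, 47.03 and 22.6 FPKM (-1.35), whereas SNAI1, which was not kept, stayed under 1 FPKM in both libraries. Of the 9 kept factors all but ZEB1 and ZEB2 were above 1 FPKM in the empty vector library, and 4 of the 9 passed the filter through the Zeb1 library alone.

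Of 13 kept epithelial transcription factors, 8 were higher and 0 lower, with a median of 1.61, although 5 of the 13 passed through the Ovol2 library alone. Of the 8 at 1 FPKM or more in both libraries 3 were higher, and after length correction 11 of the 13 were (median 1.85). ELF3, an ETS factor of epithelial differentiation, was at 11.4, 1.66, 2.61 and 63.8 FPKM with the empty vector, Zeb1, Snail and Ovol2 (4.61). The grainyhead factors differed among themselves. GRHL1 was at 0.689, 0.156, 0.311 and 14.5 FPKM (3.74) and GRHL3 at 0.567, 0.118, 0.241 and 6.21 FPKM (2.69), both highest with Ovol2. GRHL2, in contrast, was at 14.5, 2.26, 12.4 and 8.92 FPKM (1.61), highest with the empty vector. KLF4 (0.37), KLF5 (0.43, length-corrected 1.03) and GATA3 (-0.71) were within 2-fold.

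Genes of apical polarity, vesicle trafficking and epithelial splicing were mostly higher with Ovol2. Of 22 kept members 18 were higher and 0 lower, with a median of 2.40, and 13 of the 16 members at 1 FPKM or more in both libraries were higher. RAB25, a small GTPase of apical recycling, was at 28.8, 3.47, 11.5 and 86.9 FPKM with the empty vector, Zeb1, Snail and Ovol2 (4.30). CRB3, an apical determinant, was at 8.57, 1.39, 2.97 and 36.001 FPKM (3.95), and AP1M2, the epithelial subunit of the AP-1 clathrin adaptor, at 20.7, 2.49, 17.2 and 33.9 FPKM (3.32). All 3 genes were lowest with Zeb1 and highest with Ovol2. MAL2, which carries cargo to the apical surface, followed the same order at 12.5, 1.28, 3.16 and 25.2 FPKM (3.53).

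The splicing regulators ESRP1 and ESRP2 were low with Zeb1 but not much higher with Ovol2 than with the empty vector. ESRP1 was at 22.4, 3.51, 13.8 and 21.6 FPKM with the empty vector, Zeb1, Snail and Ovol2 (2.33), and ESRP2 at 11.5, 1.91, 8.04 and 14.1 FPKM (2.38). The membrane proteases ST14 (2.43) and PRSS8 (2.55) and their inhibitors SPINT1 (2.85) and SPINT2 (2.31) were all higher with Ovol2. The members within 2-fold were PARD6B (0.68, length-corrected 1.40), CDS1 (0.60, 1.33), INADL (0.39, 1.58) and PARD3 (-0.81, 0.19). After length correction 20 of the 22 were higher and the list's median was 2.96.

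Since ZEB1 binds E-boxes, the promoter windows of the genes were searched for its E-box, CACCTG or its reverse complement CAGGTG, and for the OVOL motif, CCGTTA or its reverse complement TAACGG. Windows ran from 250 bases before to 50 after each start in RefSeq (GRCh38.p14), matched by symbol, and both strands are covered by each pair of words. A gene with several starts has several windows, which can share bases. The sequences below, the 250 bases before the start, show genes of the polarity and squamous groups whose windows hold the E-box, and the window of FN1, with no match. They were chosen after their values were seen, each is written 5′ to 3′ on the strand of the gene, and capitals mark the E-box or OVOL motif.
CRB3, chr19:6464021-6464270, plus strand: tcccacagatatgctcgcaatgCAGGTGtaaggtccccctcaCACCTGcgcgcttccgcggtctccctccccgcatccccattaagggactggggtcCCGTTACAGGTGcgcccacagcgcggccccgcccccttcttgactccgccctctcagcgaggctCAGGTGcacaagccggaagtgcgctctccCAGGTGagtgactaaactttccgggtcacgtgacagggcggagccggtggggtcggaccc
AP1M2, chr19:10587313-10587562, minus strand: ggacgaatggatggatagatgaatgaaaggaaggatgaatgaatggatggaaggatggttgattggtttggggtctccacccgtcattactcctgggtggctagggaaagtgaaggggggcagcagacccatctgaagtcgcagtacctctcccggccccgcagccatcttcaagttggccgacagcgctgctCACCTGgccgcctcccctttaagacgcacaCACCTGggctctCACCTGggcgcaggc
RAB25, chr1:156060910-156061159, plus strand: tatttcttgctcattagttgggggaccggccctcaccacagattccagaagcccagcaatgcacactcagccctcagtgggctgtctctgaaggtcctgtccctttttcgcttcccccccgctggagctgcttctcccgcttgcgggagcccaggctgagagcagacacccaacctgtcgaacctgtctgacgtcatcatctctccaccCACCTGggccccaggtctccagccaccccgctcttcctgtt
SPRR1A, chr1:152983831-152984080, plus strand: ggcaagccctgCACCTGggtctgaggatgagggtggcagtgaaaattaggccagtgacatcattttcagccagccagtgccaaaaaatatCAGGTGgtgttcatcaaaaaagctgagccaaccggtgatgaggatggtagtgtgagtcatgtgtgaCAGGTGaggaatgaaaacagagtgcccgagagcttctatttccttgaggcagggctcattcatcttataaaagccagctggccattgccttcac
S100A9, chr1:153357604-153357853, plus strand: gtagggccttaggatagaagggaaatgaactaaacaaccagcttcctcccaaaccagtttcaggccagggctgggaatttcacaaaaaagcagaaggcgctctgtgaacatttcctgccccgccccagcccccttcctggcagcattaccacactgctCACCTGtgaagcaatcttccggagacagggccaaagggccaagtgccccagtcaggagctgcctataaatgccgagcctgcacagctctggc
FN1, chr2:215436069-215436318, minus strand: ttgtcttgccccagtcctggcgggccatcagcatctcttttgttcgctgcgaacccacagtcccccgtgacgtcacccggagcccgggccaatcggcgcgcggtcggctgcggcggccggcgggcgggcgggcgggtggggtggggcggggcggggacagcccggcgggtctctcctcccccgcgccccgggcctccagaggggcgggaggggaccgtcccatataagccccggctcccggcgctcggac

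CRB3 held 6 motifs, 5 E-boxes and 1 OVOL motif that abuts an E-box, with the first bases of the matches 228, 208, 153, 147, 89 and 60 bases before the start. In AP1M2 the 3 E-boxes began 57, 27 and 15 bases before it, and in RAB25 the single one in the printed bases 41 before it, with a second in the window 37 bases after it. The squamous genes SPRR1A and S100A9 held 3 and 1. Genes not printed also went the other way. The windows of AQP3, FXYD3 and KRTDAP, all higher with Ovol2, held no match, and that of IGFBP3, lower with Ovol2, held 1 E-box. The bases just after the start were found in a GENCODE transcript of the gene for AP1M2, RAB25, S100A9 and FN1, but not for CRB3 and SPRR1A. The starts of CRB3 and SPRR1A, and distances from them, are thus less certain. A match of letters is a description and not a binding site.

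The share of windows with the ZEB E-box was larger among genes higher with Ovol2, and most so among those furthest apart. It was 44.8% (77 of 172 windows) for genes 8-fold or more higher with Ovol2, 26.7% for those 4- to 8-fold higher and 24.9% for those 2- to 4-fold higher. Genes within 2-fold had 18.8%, and those 2- to 4-fold, 4- to 8-fold and 8-fold or more lower had 14.9%, 13.3% and 15.4%. Over all 35116 windows the share was 20.6%, and over the kept genes 18.5%. At least 2 E-boxes stood in 14.5% of windows of the genes 8-fold or more higher and in 2.69% of those of kept genes. After length correction the share for genes 8-fold or more higher was 42.9%.

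Another E-box, CAGCTG, was added after the data were seen. It is its own reverse complement, so 1 word was searched and not a pair, and the sizes of the 2 shares cannot be compared directly. The windows also differ in base composition, with a median of 59.0% G and C for genes 8-fold or more higher and 64.7% for kept genes. CAGCTG was in 22.7%, 18.8% and 16.2% of windows of these 3 higher groups and in 17.2% of those of kept genes. The OVOL motif was in 2.91% of windows of genes 8-fold or more higher, 5.13% of those 8-fold or more lower and 3.96% of those of kept genes. Of the lists searched, the ZEB E-box was in 10 of 18 windows of polarity genes, 9 of 18 of cornified envelope genes and 6 of 23 of the serpins and skin proteases. It was in 4 of 16 windows of collagens, 2 of 30 of the mesenchymal cytoskeleton and 0 of 12 of matrix glycoproteins. The share did not follow the order of the list medians, since the skin protease and collagen lists, at opposite ends, had like shares, both above the 18.5% of kept genes. Among genes 4-fold or more higher, 68 of 175 windows held the ZEB E-box where the empty vector lay near or beyond the Zeb1 level. It was in 68 of 227 where the empty vector lay between and in 9 of 25 where it lay near or beyond the Ovol2 level. Among genes 2-fold or more higher the shares, in that order, were 33.7% (139 of 412), 25.3% (209 of 827) and 24.7% (68 of 275). Windows were at hand for 8790 of the 11991 kept genes and 128 of the 196 genes 8-fold or more higher, too few to stand for the whole sets, so the shares describe these windows and are void as a check of the sets.

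**Figure D4:**
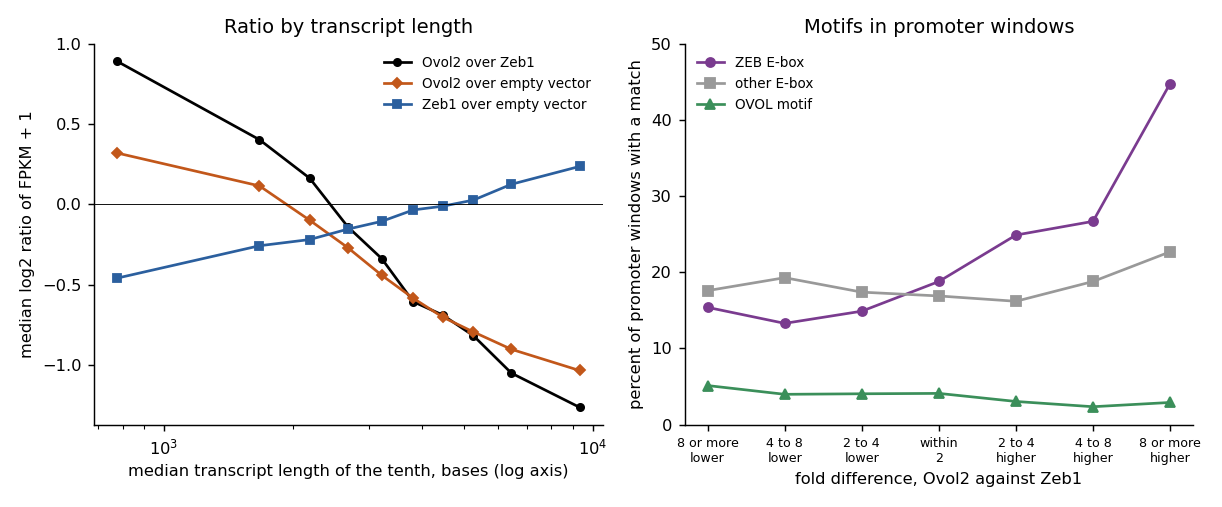
Left, median log2 ratio of FPKM + 1 in 10 equal groups of genes by transcript length (x, bases, log axis) for Ovol2 over Zeb1 and for each over the empty vector; right, percent of promoter windows with each motif by fold difference between Ovol2 and Zeb1. The Ovol2 over Zeb1 median goes from 0.89 to -1.27, and the ZEB E-box share from 15.4% in genes 8-fold or more lower to 44.8% in genes 8-fold or more higher.

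The junction genes were less uniform. Of 21 kept genes of adherens and tight junctions, 9 were higher and 2 lower (median 0.93), or 13 and 1 after length correction (median 1.30). Through the Ovol2 library alone passed 5 of them, and of the other 16, 6 were higher and 2 lower. CLDN4, a claudin of tight epithelia, was at 8.31, 1.92, 2.93 and 113 FPKM with the empty vector, Zeb1, Snail and Ovol2, 58.9-fold higher with Ovol2 (log2 5.29). PVRL4, which encodes nectin 4, was at 3.49, 3.03, 5.25 and 23.8 FPKM (2.62), a gene 2-fold or more from the empty vector in the Ovol2 library only. TJP3 was at 0.247, 0.0865, 0.107 and 4.77 FPKM (2.41), while its paralog TJP1, the scaffold ZO-1, was at 10.7, 17.2, 13.4 and 2.29 FPKM (-2.46, length-corrected -1.28) and lowest with Ovol2. The catenin CTNNB1, which encodes beta-catenin, was the other lower gene, at 103, 139, 128 and 55.9 FPKM (-1.30, length-corrected -0.46). CLDN1 was within 2-fold, at 252, 63.4, 127 and 73.2 FPKM (0.20), and below the empty vector in all 3 factor libraries.

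Desmosomal genes held members of both directions. Of 12 kept members 5 were higher and 3 lower, beside 14.4% higher and 28.8% lower over all kept genes. The share of lower members was thus near that of all kept genes. The list median of 0.06 became 1.22 after length correction (7 higher, 1 lower) and -0.47 when the libraries were rescaled without RMRP and RPPH1. PERP, a desmosomal membrane protein, was at 311, 91.6, 246 and 855 FPKM with the empty vector, Zeb1, Snail and Ovol2 (3.21), and the plakophilin PKP3 at 35.4, 7.001, 37.4 and 54.6 FPKM (2.80). A second plakophilin, PKP2, was at 9.97, 9.83, 9.87 and 1.49 FPKM (-2.12), and the cadherin DSG2 at 61.6, 52.3, 79.7 and 13.1 FPKM (-1.92, length-corrected -0.92). PKP2 and DSG2 were alike in the Zeb1 and empty vector libraries and low with Ovol2. The keratinocyte cadherin DSG1, listed under 0.1 FPKM elsewhere, reached 2.80 FPKM with Ovol2 (1.90).

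Hemidesmosomes and their anchoring matrix, which hold basal cells to the basement membrane, had 0 of 10 members higher and 5 lower (median -0.92, length-corrected -0.24 with 3 lower). COL7A1, the anchoring fibril collagen, was at 50.7, 72.9, 62.4 and 1.83 FPKM with the empty vector, Zeb1, Snail and Ovol2 (-4.71). The laminin chain LAMA3 was at 98.5, 34.3, 137 and 3.53 FPKM (-2.96), and the plakin DST at 56.004, 55.05, 49.5 and 6.46 FPKM (-2.91, length-corrected -1.52). ITGB4, the integrin of hemidesmosomes, was at 134, 39.8, 116 and 17.5 FPKM (-1.14, length-corrected -0.13). All 4 were lowest with Ovol2, below Zeb1 as well as the empty vector. These are long transcripts, and PLEC went from -2.35 to -0.97 after length correction.

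Keratins gave a broad shift in type. Of 17 kept keratins 13 were higher with Ovol2 and 1, KRT5, was lower (median 2.73), and of the 12 at 1 FPKM or more in both libraries 8 were higher. After length correction 12 of the 17 were higher. KRT4 and KRT13, the pair of mucosal suprabasal cells, were at 4.18, 1.89, 1.44 and 679 FPKM and at 4.80, 1.73, 1.68 and 193 FPKM in the order given above (log2 7.88 and 6.15). KRT16, a keratin of activated epidermis, was at 41.4, 14.1, 26.1 and 965 FPKM (6.001), and KRT15, a keratin of basal progenitors, at 125, 11.2, 11.1 and 560.3 FPKM (5.52). Of the epidermal suprabasal pair, KRT1 reached 11.7 FPKM with Ovol2 and was listed at 0 with Zeb1, and KRT10 was at 12.3, 14.9, 18.7 and 105 FPKM (2.73). KRT14, the partner of KRT5, was within 2-fold (-0.25), as were KRT7 (0.36) and KRT8 (0.08). KRT6A, KRT6B and KRT6C are near-identical, so their separate values (1.59, 5.65 and 2.49) are uncertain.

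S100 genes held 3 of the 4 highest ratios of the comparison. Of 14 kept members 8 were higher and 0 lower (median 3.27, length-corrected 2.37). S100A7, or psoriasin, was at 1.80, 1.10, 1.15 and 3214 FPKM with the empty vector, Zeb1, Snail and Ovol2, 2935-fold higher with Ovol2 (log2 10.58), though its near-identical copies make the value uncertain. S100P was at 8.39, 3.51, 4.71 and 4002 FPKM (9.79), and S100A8, the partner of S100A9, at 4.53, 1.06, 0.670 and 213 FPKM (6.70). The levels of S100A7, S100A8, S100A9 and S100P with Zeb1 and with Snail were all under 5 FPKM. S100A2 was already abundant with the empty vector, at 3255, 508, 2051 and 6158 FPKM (3.60). S100A4, often used as a mesenchymal marker, was at 34.03, 331, 49.4 and 505 FPKM (0.61, length-corrected -0.28), higher than the empty vector in both factor libraries.

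The genes of the cornified envelope were higher almost throughout. Of 22 kept members 20 were higher and 0 lower (median 3.91), but 18 passed through the Ovol2 library alone, so the direction of their ratios was set by the filter. Of the 4 at 1 FPKM or more in both libraries, 3 were higher. KRTDAP, a secreted protein of differentiating keratinocytes, was at 0.677, 0.740, 1.27 and 2391 FPKM with the empty vector, Zeb1, Snail and Ovol2 (10.42). SPRR1A, a small proline-rich envelope protein whose promoter window with 3 E-boxes is shown above, was at 0.0794, 0.0667, 0.0725 and 317 FPKM (8.22), and SPRR1B at 5.66, 0.447, 0.373 and 391 FPKM (8.08). The low libraries of KRTDAP and SPRR1A were alike, so the span of both genes came from Ovol2 alone. CSTA, the protease inhibitor cystatin A, was at 134, 24.4, 59.5 and 3494 FPKM, and was 143-fold higher with Ovol2 than with Zeb1 (log2 7.11). IVL, which encodes involucrin, was at 34.3 against 0.471 FPKM (4.58), and the crosslinking enzyme TGM1 at 31.7 against 0.937 FPKM (4.08). FLG, or filaggrin, a late marker with a very long transcript, reached only 1.63 FPKM with Ovol2 (0.99, length-corrected 2.38), and LOR, or loricrin, 3.86 FPKM (2.28).

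The skin proteases and the clade B serpins, of which the kallikreins cut desmosomal proteins and the serpins inhibit proteases, showed the highest median of all lists. With a pseudocount of 5 FPKM the S100 list was higher (2.75 against 2.70), as were other lists with the filter in both libraries. Of 19 kept members 18 were higher and 0 lower (median 4.52), with 14 passing through Ovol2 alone and 4 of the other 5 higher. KLK5 and KLK7, kallikreins of the upper epidermis, were at 5.89, 0.921, 0.749 and 571 FPKM and at 0.844, 0.232, 0.195 and 351 FPKM in the usual order of libraries (8.22 and 8.16). SERPINB3 was at 0.613, 0.113, 0.319 and 234 FPKM (7.72), a value shared uncertainly with its near copy SERPINB4. PI3, the elastase inhibitor elafin, was at 0.118, 0.210, 0.371 and 253 FPKM (7.71). SLPI, a related inhibitor, was abundant in every library, at 162, 42.7, 137 and 1215 FPKM (4.80). SERPINB1 was the member within 2-fold (-0.18).

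Defence and transport genes were mixed, but their shares of lower members were near or below the 28.8% of all kept genes. Of 13 kept defence genes 7 were higher and 3 lower (median 1.47, but -0.25 over the 5 members at 1 FPKM or more in both libraries), and after length correction 4 were lower. The beta-defensin DEFB1 was at 1.26, 0.441, 0.431 and 113 FPKM with the empty vector, Zeb1, Snail and Ovol2 (6.31), while the complement protein C3 was at 55.6, 125, 73.8 and 11.6 FPKM (-3.32). Of 10 ion and water transport genes 6 were higher and 1 lower (median 1.97), or 3 and 1 of the 7 at 1 FPKM or more in both libraries, with the chloride channel regulator CLCA2 at 28.8, 7.24, 8.01 and 88.8 FPKM (3.44). ATP1B1, a sodium pump subunit, was the lower one, at 24.1, 155, 19.6 and 37.1 FPKM (-2.04).

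**Figure D5:**
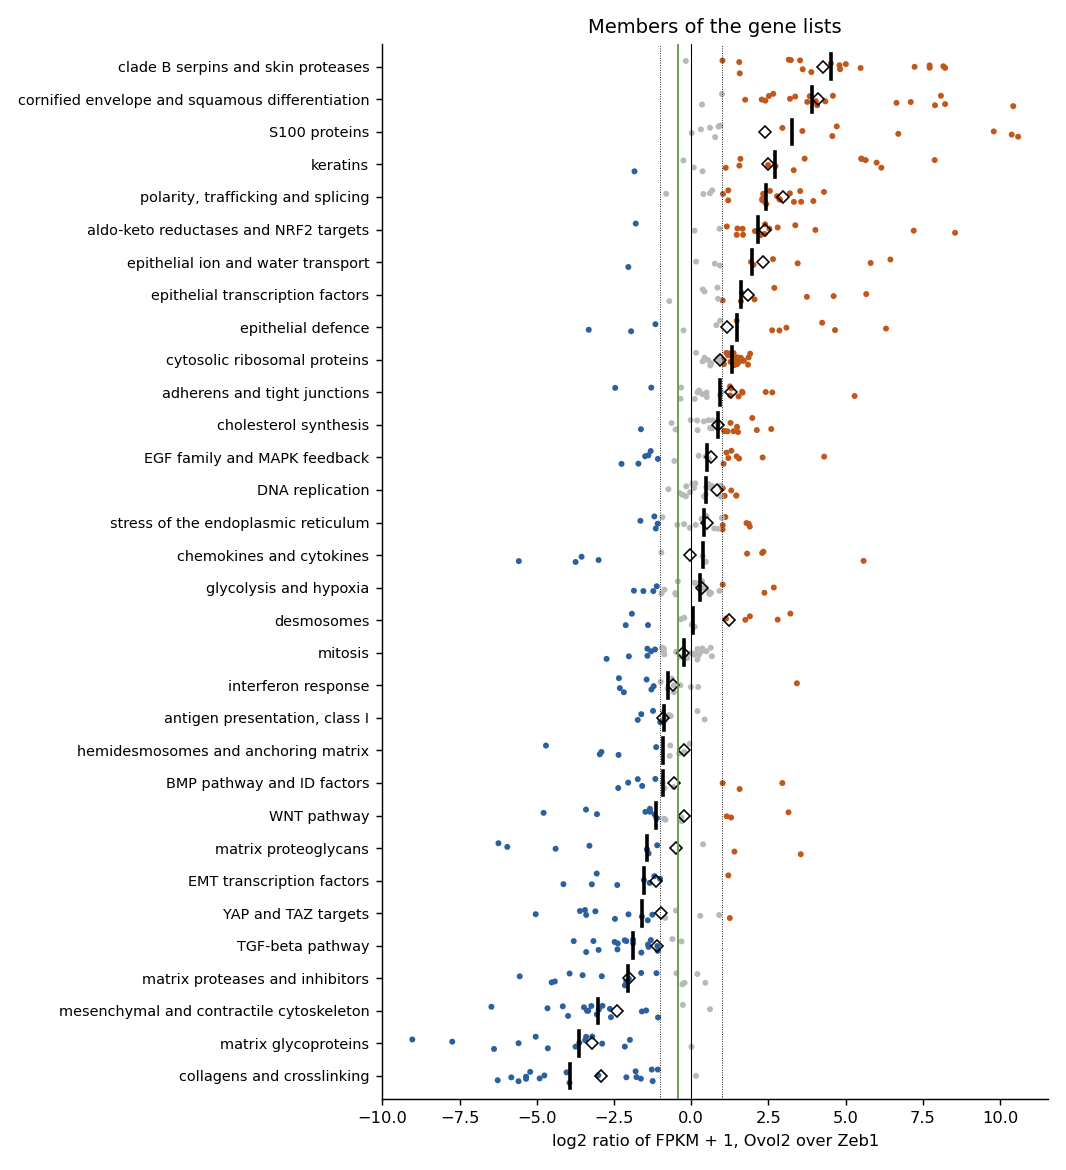
Log2 ratio of FPKM + 1, Ovol2 over Zeb1, for the kept members of 32 gene lists, 1 point per gene, with the list median as a bar, the length-corrected median as a diamond and the median of all kept genes as a green line. The skin protease list has the highest median, 4.52, and the collagen list the lowest, -3.94.

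Matrix genes lay at the opposite end of the span. Of 15 kept matrix glycoproteins 14 were lower with Ovol2 and 0 higher (median -3.63, length-corrected -3.22), and 8 of the 9 at 1 FPKM or more in both libraries were lower, the other 6 having passed through the Zeb1 library alone. POSTN, or periostin, was at 14.9, 509.8, 154 and 1.39 FPKM with the empty vector, Zeb1, Snail and Ovol2, 367-fold lower with Ovol2 (log2 -7.74). FSTL1 was at 36.5, 226, 146 and 1.71 FPKM (-6.39), and FBN1, the microfibril protein fibrillin 1, at 0.377, 50.3, 8.67 and 0.0632 FPKM (-5.59). TGFBI, a matrix protein induced by TGF-beta, was highly abundant, at 1999, 3909, 3038 and 289.9 FPKM (-3.75). The exception was MFAP5, at 1.85, 1.79, 6.96 and 1.80 FPKM (0.01).

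Collagens and their crosslinking enzymes had a median of -3.94, with 18 of 19 lower and 0 higher, or 15 lower after length correction (median -2.94). Through the Zeb1 library alone passed 7 of the 19, and of the other 12, 11 were lower. The median was the lowest of all lists, but that of the matrix glycoproteins was lower after length correction, with a pseudocount of 5 FPKM (-3.03 against -2.43), with no filter (-3.05 against -1.79) and with the filter in both libraries. COL3A1, a fibrillar collagen, was at 0.0699, 59.5, 2.28 and 0.0643 FPKM with the empty vector, Zeb1, Snail and Ovol2 (-5.83), present only with Zeb1 and, at a low level, with Snail. COL8A1 was at 6.46, 94.1, 9.64 and 0.233 FPKM (-6.27). COL4A2, a basement membrane collagen, was at 45.8, 99.2, 78.5 and 2.33 FPKM (-4.91), and the lysyl oxidase LOX at 33.2, 101, 103 and 1.51 FPKM (-5.35). COL4A2 and LOX were well expressed in the empty vector library, below their Zeb1 level and above their Ovol2 level. For COL4A2 the empty vector lay near the Zeb1 level, at a position of 22.3%, so the Ovol2 library made most of its span. COL16A1, the member within 2-fold, was at 8.89, 2.06, 6.33 and 2.40 FPKM (0.15).

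Proteoglycans were mostly lower. Of 11 kept members 8 were lower and 2 higher (median -1.43, length-corrected -0.50 with 5 lower). Over all kept genes 28.8% were lower and 14.4% higher, so the share of higher members was near that of all kept genes. Through the Zeb1 library alone passed 5 of them, and of the other 6, 3 were lower and 2 higher. The secreted proteoglycans DCN and LUM, which bind collagen fibrils, were at 11.1, 604, 131 and 6.98 FPKM and at 0.763, 71.5, 1.93 and 0.166 FPKM (-6.24 and -5.96). VCAN, or versican, was at 0.235, 21.01, 0.828 and 0.0474 FPKM (-4.39). The cell surface proteoglycan SDC1, the syndecan of epithelia, had the highest ratio, at 156, 31.3, 117 and 376 FPKM (3.54). GPC1 was the other higher member (1.40), and SDC4 was within 2-fold (0.38).

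Of 18 kept genes of the mesenchymal and contractile cytoskeleton, 16 were lower and 0 higher (median -3.03, length-corrected -2.42 with 15 lower). Their transcripts are shorter than those of the collagens, and 14 of the 16 members at 1 FPKM or more in both libraries were lower. After VIM, the largest ratios belonged to TPM2, a tropomyosin, at 113, 315, 178 and 11.5 FPKM with the empty vector, Zeb1, Snail and Ovol2 (-4.66), and to FAP, the fibroblast activation protease, at 42.02, 80.03, 64.6 and 3.53 FPKM (-4.16). ACTA2, the smooth muscle actin, was at 2.27, 19.99, 3.69 and 0.322 FPKM (-3.99). CNN3 (-0.27) and S100A4 were the members within 2-fold.

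Of 16 kept matrix proteases and their inhibitors, 11 were lower and 0 higher (median -2.06), or 9 lower after length correction. Through the Zeb1 library alone passed 7 of them, and of the other 9, 5 were lower. ADAMTS1, SERPINE2 and PAPPA were under 5 FPKM in every library but Zeb1. ADAMTS1 was at 0.885, 61.6, 3.32 and 0.332 FPKM with the empty vector, Zeb1, Snail and Ovol2 (-5.55), and PAPPA, which cleaves binding proteins of insulin-like growth factors, at 0.0235, 22.6, 0.210 and 0.103 FPKM (-4.42). MMP2, a gelatinase, was at 3.06, 19.9, 3.89 and 0.359 FPKM (-3.94). The urokinase gene PLAU (-0.48) and its receptor PLAUR (0.20, length-corrected -0.31) were within 2-fold.

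In the TGF-beta pathway, which can induce EMT, 17 of 19 kept members were lower and 0 higher (median -1.88, length-corrected -1.10 with 10 lower). Of the 16 at 1 FPKM or more in both libraries 14 were lower. The latent binding protein LTBP1 was at 12.1, 23.5, 23.7 and 0.752 FPKM with the empty vector, Zeb1, Snail and Ovol2 (-3.81). The receptor TGFBR1 was at 22.4, 17.5, 39.8 and 1.06 FPKM (-3.17), and PMEPA1, a target and inhibitor of the pathway, at 59.4, 51.9, 69.1 and 5.61 FPKM (-3.002). For TGFBR1 and PMEPA1 the empty vector exceeded Zeb1, so only the Ovol2 library was low. The ligand TGFB2 was at 1.72, 4.74, 1.49 and 0.288 FPKM (-2.16), and SMAD4, the shared signal transducer, at 7.16, 11.4, 10.8 and 1.89 FPKM (-2.10, length-corrected -0.92).

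The BMP list had 3 higher and 5 lower of 11 (median -0.92), or 2 and 2 after length correction (median -0.56). The 3 higher genes were ID1, ID2 and ID3, inhibitors of helix-loop-helix factors and known BMP targets. ID1 was at 84.3, 22.3, 68.5 and 179 FPKM with the empty vector, Zeb1, Snail and Ovol2 (2.95), ID2 at 4.55, 2.17, 2.54 and 8.37 FPKM (1.56) and ID3 at 47.4, 24.3, 47.9 and 50.2 FPKM (1.02, length-corrected 0.11). The receptor BMPR2 (-2.37, length-corrected -0.98) and the transducer SMAD5 (-2.04, length-corrected -0.94) led the lower members.

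Of 17 kept WNT pathway genes 3 were higher and 10 lower (median -1.13, length-corrected -0.23 with 3 each way). The share of higher genes was near the 14.4% of all kept genes. Through the Ovol2 library alone passed 3 of the 17 and through Zeb1 alone 6, and of the other 8, 6 were lower and 0 higher. DKK1, a secreted WNT antagonist, was at 89.6, 845, 526 and 29.7 FPKM with the empty vector, Zeb1, Snail and Ovol2, 28.4-fold lower with Ovol2 (log2 -4.78). WNT5A, a non-canonical ligand of mesenchymal cells, was at 2.01, 82.4, 14.9 and 6.85 FPKM (-3.41) and was higher in all 3 factor libraries than with the empty vector. The 3 higher genes, which are those that passed through Ovol2 alone, were ligands, WNT4 at 2.45, 0.383, 0.435 and 11.3 FPKM (3.15), WNT7A (1.29) and WNT10A (1.15).

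The EGF family list held genes of both directions. Of 18 kept members 8 were higher and 6 lower (median 0.52), or 8 and 2 after length correction (median 0.63). The share of lower members was near the 28.8% of all kept genes. Of the 10 at 1 FPKM or more in both libraries 5 were higher and 2 lower. The ligand HBEGF was at 5.47, 0.384, 0.678 and 26.3 FPKM with the empty vector, Zeb1, Snail and Ovol2 (4.30). The ligands EPGN (2.31), TGFA (1.47), AREG (1.20, length-corrected 0.30) and BTC (1.14) were higher as well, and EREG was within 2-fold (0.24). Their receptor EGFR was at 55.6, 22.5, 47.9 and 6.16 FPKM (-1.71), but at -0.33 after length correction. The feedback inhibitors SPRED1 (-2.26, length-corrected -1.07), SPRY2 (-1.39, -1.18), DUSP4 (-1.31, -0.52) and DUSP6 (-1.08, -0.41) were lower, DUSP4 and DUSP6 not after correction, and DUSP5 was higher (1.55).

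Of 15 kept targets and members of the YAP and TAZ pathway, which responds to cell spreading and stiffness, 10 were lower and 1 higher (median -1.60, length-corrected -0.99 with 7 lower and 2 higher). CTGF and CYR61, its best known targets, were at 33.1, 142, 62.5 and 3.34 FPKM and at 48.9, 123, 81.1 and 10.7 FPKM (-5.04 and -3.40). The receptor kinase AXL was at 19.5, 30.6, 33.4 and 1.91 FPKM (-3.44). The higher gene was F3, or tissue factor (1.25). CTGF, CYR61 and NT5E also stand in other lists, so these counts are not independent of them.

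Proliferation genes differed less between the 2 libraries. Of 24 genes of DNA replication 6 were higher and 0 lower (median 0.48), or 9 higher after length correction. Of 24 mitosis genes 0 were higher and 6 lower (median -0.24), a share below the 28.8% of all kept genes, and 1 was higher and 2 lower after length correction. PCNA, the polymerase clamp, was at 61.2, 28.7, 55.3 and 71.7 FPKM with the empty vector, Zeb1, Snail and Ovol2 (1.29, length-corrected 0.78). TOP2A, a topoisomerase of dividing cells, was at 40.7, 29.3, 54.7 and 6.46 FPKM (-2.02). CENPF, a kinetochore protein with a very long transcript, was at 15.5, 12.6, 22.2 and 1.04 FPKM (-2.74, length-corrected -1.36). Against the empty vector, the median of the replication list was -0.97 for Zeb1 and -0.62 for Ovol2, comparisons that share the empty vector library. All genes in the length group of median 3217 bases had medians of -0.11 for Zeb1 and -0.44 for Ovol2, so the Ovol2 value lay nearer to that of genes of like length.

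Ribosomal protein genes were higher with Ovol2 in 22 of 30 cases and lower in 0 (median 1.33). After length correction 13 were higher (median 0.94), and the list median was 0.79 when the libraries were rescaled without RMRP and RPPH1. The correction took each gene's longest transcript, of median length 1917 bases in this list. RPL18, taken at 3844 bases, went from 1.86 to 2.46. Whether the longest transcripts are the ones present was not tested. RPL27 was at 1083, 559.6, 1024 and 2099 FPKM with the empty vector, Zeb1, Snail and Ovol2 (1.91). Of 23 cholesterol synthesis genes 10 were higher and 1 lower (median 0.86), or 9 and 0 after length correction. MVK, mevalonate kinase, was at 11.3, 3.26, 7.55 and 24.6 FPKM (2.59), and the lower one, LSS, at 24.3, 13.3, 22.7 and 3.60 FPKM (-1.63, length-corrected -0.79).

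Aldo-keto reductases and other targets of NRF2, a regulator of defence against oxidants, were mostly higher. Of 18 members 15 were higher and 1 lower (median 2.15), and 13 of the 16 at 1 FPKM or more in both libraries were higher. After length correction 16 were higher and 1 lower. AKR1B10 was at 0.848, 0.337, 0.259 and 497 FPKM with the empty vector, Zeb1, Snail and Ovol2 (8.54). The glutathione peroxidase GPX2 was at 0.711, 0.374, 0.296 and 201 FPKM (7.20), and the quinone reductase NQO1 at 68.2, 35.3, 49.7 and 588 FPKM (4.02). TXNRD1, a thioredoxin reductase and a standard target, was the lower one, at 56.1, 169.9, 82.2 and 48.2 FPKM (-1.80). The pentose phosphate enzymes PGD (2.80), TALDO1 (2.39) and TKT (2.24) were higher.

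In bulk libraries, fewer cells of a kind and less RNA per cell cannot be told apart, so an intermediate level can belong to all cells or to some of them. How reads shared by near-identical genes were assigned, and whether strand was used, the sources used here do not give.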

How the data were processed

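RNA sequencing values of 4 MCF10A libraries, 1 per group, were read from 3 deposited tables of 25360 rows, each with the empty vector library beside 1 factor library. The authors used TopHat, Cufflinks and Cuffdiff on the hg19 build, per the submitters' processing notes, and the sources used here give no versions. The deposited values were taken as FPKM from those notes and from the values, since no header names the unit. Per the file headers the tables also hold the authors' own comparisons with the empty vector, which were not used. The empty vector values were identical in the tables, and the factor libraries were compared as deposited. Identical empty vector values do not show that the factor libraries share one scale. All FPKM summed to 555645 with Ovol2 and 290694 with Zeb1.

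Rows of one symbol (43 repeats) were summed, 1 FPKM was added, and genes at 1 FPKM or more in the Ovol2 or Zeb1 library were kept. Length correction subtracted the median ratio in 20 bins of the longest GENCODE release 29 transcript, which 98.3% of kept genes had. Depth is an estimate, from the steps between low values. Groups came from the labels. The members and the 35 gene lists were chosen with earlier results of these data known, and 4 list symbols were found under another name. Genes named are the delivered factors, the markers, CDH1, CDH2, EPCAM and ESRP1, the 15 highest and 15 lowest ratios among genes that reach 5 FPKM, up to 4 leading members of each list, and up to 5 leading genes per position of the empty vector library or alike in both factor libraries. Further list members were named after their values were seen. Alternatives covered pseudocounts, filters, scalings, gene sets and length, and no test was run. The steps were tested on simulated data. Python 3.11.15, pandas 2.3.3, NumPy 2.4.6 and matplotlib 3.10.9 were used.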

Additional observations from a re-analysis of the deposited data

How the results depend on the processing

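No paired analysis was possible because each group has 1 library. For the same reason no library could be left out. Against 1731 genes higher and 3448 lower, a pseudocount of 5 FPKM gave 1047 and 1340, and rescaling without RMRP and RPPH1 gave 1031 and 5218. Length correction gave 1645 lower. For the higher genes, 886 had the empty vector between the 2 libraries, or 469 when rescaled without RMRP and RPPH1. For the lower genes it was 1524, and 688 with a pseudocount of 5 FPKM, 2967 when rescaled, 900 with length correction and 945 with a filter of 1 FPKM in both libraries, the last chosen after seeing the data. EPPK1, at -0.15, came to 1.24 and LAMA5, at -0.36, to 1.03 with length correction, and the defence list's median, 1.47, came to -0.25 with the filter in both libraries. The causes were not tested. Of 1812 ratios of named genes under the 11 alternatives, 1761 kept their sign and side of the 2-fold line, as did 317 of 352 list medians. The sign turned for 15 of these ratios, none of them 2-fold or more in the reported setting, and for 6 medians, of which the defence list's was. By the estimated depths, 1 FPKM stands for about 24.1 to 34.3 fragments per 1000 bases of transcript. A value under 1 FPKM thus rests on few fragments where the transcript is short, and on more where it is long.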

Other observations

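Chemokines and cytokines went both ways, where 14.4% of all kept genes were higher and 28.8% lower. Of 11 kept chemokines and cytokines 4 were higher with Ovol2 than with Zeb1 and 4 lower, with a median of 0.37 that came to -0.17 when rescaled without RMRP and RPPH1 and -0.04 after length correction (3 higher, 4 lower). Through the Ovol2 library alone passed 2 of them and through Zeb1 alone 2. The 4 lower ones were neutrophil attractants of the CXC family, led by CXCL1 at 9.05, 168, 12.6 and 2.53 FPKM with the empty vector, Zeb1, Snail and Ovol2 (log2 -5.58) and CXCL8 at 3.29, 66.8, 4.10 and 4.78 FPKM (-3.55). CXCL2 and CXCL3 were the others, CXCL2 at 10.1, 25.8, 8.60 and 2.35 FPKM and CXCL3 at 1.01, 15.9, 1.71 and 0.257 FPKM. The 4 higher ones were IL1RN, the interleukin 1 receptor antagonist, at 1.28, 0.148, 0.612 and 53.9 FPKM (5.58), IL1A (2.34), CXCL14 (2.30) and CCL20 (1.81, length-corrected 0.90), and IL1B (0.47, -0.04), IL18 (0.37) and IL33 (-0.97) were within 2-fold. Of 15 interferon response genes 1 was higher and 6 lower (median -0.76), with OAS1 the higher one, at 3.05, 1.08, 1.26 and 21.2 FPKM (3.42). Through the Zeb1 library alone passed 5 of them, and of the other 10, 1 was higher and 2 lower. After length correction 2 of the 15 were higher and 5 lower. Of 12 genes of class I antigen presentation 0 were higher and 4 lower (median -0.89), near the 28.8% of all kept genes that were lower, and after length correction 1 was higher and 6 lower. The values of near-identical members of this family are uncertain.

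Of 24 glycolysis and hypoxia genes 3 were higher and 4 lower (median 0.28, or -0.21 when rescaled without RMRP and RPPH1), shares near or below those of all kept genes, 14.4% higher and 28.8% lower. After length correction 6 were higher and 3 lower. The glucose transporter SLC2A1 was at 32.9, 24.7, 11.7 and 163 FPKM with the empty vector, Zeb1, Snail and Ovol2 (2.67), and ENO1 (-1.12) and NDRG1 (-1.23, length-corrected -0.62) were among the lower. Of 20 genes of stress of the endoplasmic reticulum 6 were higher and 4 lower (median 0.41, or -0.11 when rescaled), or 4 and 2 after length correction. Some genes had nearly one level in both factor libraries and another in the empty vector library, which both comparisons share. AKR1B1, an aldose reductase, was at 125, 479, 201 and 515 FPKM with the empty vector, Zeb1, Snail and Ovol2, and FTH1, the ferritin heavy chain, at 639, 1948, 795 and 1599 FPKM (-0.28, length-corrected -1.19). TNFSF9, a ligand of the tumour necrosis factor family, was at 4.64, 14.9, 3.93 and 15.5 FPKM, and the Notch ligand JAG2, low in both, at 29.3, 5.94, 24.1 and 4.99 FPKM. The direction between the factor libraries of AKR1B1 and TNFSF9 turned under the rescaling and under length correction, and that of JAG2 under length correction.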
